A study of Mus musculus with 20 samples.

Results

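The LIF and interleukin-6 family signalling genes described here were 3 ligands (Lif, Il6 and Il11), 3 receptors (Lifr, Osmr and Il6st), the transcription factor Stat3 and the inhibitor Socs3. They were picked by gene symbol, and all 8 of the 8 symbols were found among the 15757 genes measured, each above 0 in all 20 libraries. The symbols were chosen with earlier results of the same libraries known. The tests below therefore set the size of each difference against the spread between replicates and give no independent support for the choice of genes.

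Cytokines of the interleukin-6 family act through receptor complexes that contain gp130, the shared signalling chain encoded by Il6st. LIF brings Lifr together with gp130, oncostatin M in the mouse signals mainly through Osmr and gp130, and interleukin-6 and interleukin-11 use their own alpha receptors with gp130. The complexes activate Janus kinases, which phosphorylate STAT3, and STAT3 induces Socs3, whose protein binds gp130 and the kinases and limits the signal. In mouse embryonic stem cells LIF acting through STAT3 sustains self-renewal, and fibroblasts secrete several of these cytokines.

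The study followed mouse embryonic fibroblasts of the OG2 strain, at passage 2, that were infected with retroviruses for the OSKM reprogramming factors (Oct4, Sox2, Klf4 and c-Myc) and kept in iCD1 medium. In the knockdown arm the cells also received shRNA against Ddx10, which encodes an RNA helicase of the DEAD-box family, and in the control arm shRNA against luciferase, a gene that mouse cells lack. Whether the knockdown libraries carry 1 or several Ddx10 shRNAs is not given in the sources used here, so the spread between them may include a difference of shRNA. Messenger RNA was sequenced at days 0, 1, 3, 5 and 7 of reprogramming. Both arms were thus infected and received the factors, and there was no arm without them. There were 2 libraries per arm at every day, 20 in 10 groups. The series text calls these biological replicates, but no label says whether they came from separate cultures, so the p-values below reflect how far these samples spread, which may be technical. The sources used here do not list the components of the medium, so whether LIF protein was added to it is not given. The libraries are of whole cultures, in which fewer cells of a type and less RNA per cell cannot be told apart.

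Values are the authors' normalized read counts per gene, called normalized reads below. Library sums lay between 15.67 and 21.26 M, and the value of 1 read put the depth at about 12.0 to 23.7 M reads. Replicates correlated at r = 0.9808 to 0.9888 across genes, and the 2 libraries of a group differed by a median of 0.1175 to 0.1625 per gene on the log2 scale, except in the control arm at day 1, where it was 0.2523. Ddx10, the knockdown target, had 255 to 530.0 normalized reads in knockdown libraries and 499.9 to 921 in control libraries. Its log2 fold change as the mean of all days was -0.9995 ± 0.052 (SE), with a limma adjusted p of 5.851e-08. The depth of the knockdown varied by day. Ddx10 was at -0.69 at day 0, -1.58 at day 1, -1.31 at day 3, -0.79 at day 5 and -0.62 at day 7. All 8 fibroblast markers on a list were detected in every group. Of 8 markers of pluripotent cells, Utf1 was at 0 in both libraries of both arms at days 0 and 1, Dppa5a was at 0 in them at days 1 and 3, and Zfp42 was at 0 in both knockdown libraries of day 0.

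The promoters of Lif, Stat3 and Socs3 are shown because these 3 genes passed the test between the arms. Each line gives the 250 bases before the RefSeq transcription start on the GRCm38.p6 assembly, read 5′ to 3′ on the gene's strand. Lif lies at chr11:4257557-4272514 on the plus strand, Stat3 at chr11:100885098-100939540 and Socs3 at chr11:117966079-117970047, both on the minus strand (mm10, GENCODE M21). The windows are chr11:4257318-4257567, chr11:100939541-100939790 and chr11:117969367-117969616. The annotated extent of Socs3 reaches beyond the RefSeq start, so its window lies inside the GENCODE gene. Capitals mark TTCNNNGAA, the palindromic motif bound by STAT dimers, which reads the same on both strands.
Lif: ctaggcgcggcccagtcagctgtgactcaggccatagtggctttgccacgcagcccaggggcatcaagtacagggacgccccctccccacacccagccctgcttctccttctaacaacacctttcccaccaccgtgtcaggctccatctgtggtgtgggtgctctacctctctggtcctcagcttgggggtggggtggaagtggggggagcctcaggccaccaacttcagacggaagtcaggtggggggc
Stat3: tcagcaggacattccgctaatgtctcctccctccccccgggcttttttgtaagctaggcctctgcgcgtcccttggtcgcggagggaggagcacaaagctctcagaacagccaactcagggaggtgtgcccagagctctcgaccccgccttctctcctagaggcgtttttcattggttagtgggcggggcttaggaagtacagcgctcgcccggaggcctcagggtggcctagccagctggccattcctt
Socs3: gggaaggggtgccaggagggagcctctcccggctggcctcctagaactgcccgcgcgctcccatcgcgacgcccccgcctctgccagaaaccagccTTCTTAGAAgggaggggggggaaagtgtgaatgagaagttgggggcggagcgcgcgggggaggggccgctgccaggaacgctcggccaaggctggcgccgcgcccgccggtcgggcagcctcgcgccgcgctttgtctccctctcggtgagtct
The Socs3 window held TTCTTAGAA, whose first base lies at position -154 from the start, and the Lif and Stat3 windows held no match. All 8 genes matched an entry, with 10 windows in all, and 1 of the 10 held the motif. Over all RefSeq promoters of the same length, 2306 of 32851 (7.02%) held it. A match is a run of letters and not a measured binding site.

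Between the arms, Lif, Stat3 and Socs3 changed and the other 5 genes did not pass the test on any day. A gene was called changed when its limma adjusted p, over all 15757 genes, was under 0.05. At day 0, 0 of the 8 genes were called, where 3.31% of all genes were, and at day 1 0 of 8, where 0.146% were. At day 3 the call was 1 of 8 (lower), against 2.25% of all genes called lower and 4.77% called in either direction. At day 5 it was 3 of 8 (1 higher and 2 lower), against 8.73% of all genes, and at day 7 again 3 of 8 (1 higher and 2 lower), against 6.17%. As the mean of all days 2 of 8 were lower, against 7.46% of all genes called lower and 17.8% called in either direction. The median log2 fold change of the 8 genes lay between -0.096 at day 7 and 0.125 at day 3, and that of all genes between -0.017 and 0.015. The knockdown and control libraries did not overlap for 5, 1, 7, 4 and 6 of the 8 genes at days 0, 1, 3, 5 and 7, where 50.3, 34.7, 53.4, 56.5 and 56.2% of all genes did not overlap.

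**Figure D1:**
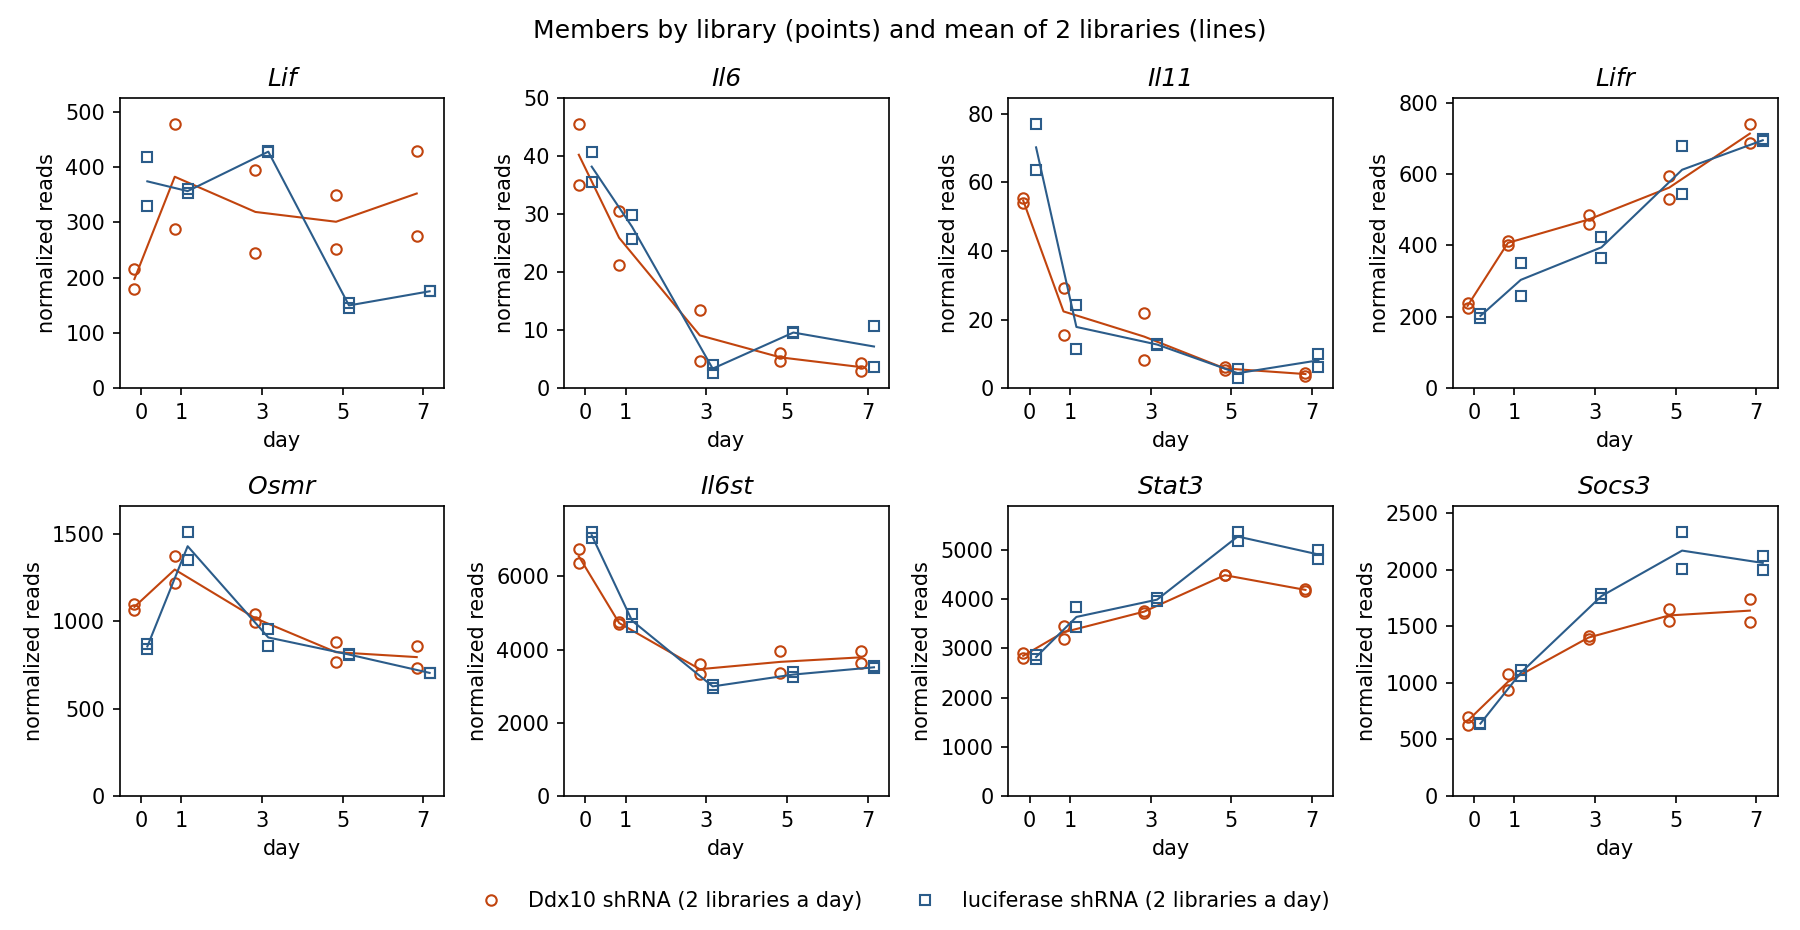
Normalized reads (y axis, linear from 0, its own scale in each panel) against day for the 8 genes. Circles are knockdown libraries, squares control libraries, and lines join the means of 2 libraries. At day 7 Lif stands at 275 and 429.7 in the knockdown against 175 and 176 in the control, and Socs3 at 1539 and 1736 in the knockdown against 1996 and 2122 in the control.

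Among the ligands, Lif, the cytokine that gives the pathway its name, was higher in knockdown than in control cells late in the course and not early. At day 0 Lif had 180.0 and 215 normalized reads in knockdown libraries, against 418 and 331 in control libraries. At day 1 it had 288 and 478 in the knockdown, against 359.8 and 354 in the control. At day 3 it had 394 and 244 in the knockdown, against 429 and 427 in the control. The knockdown libraries were thus below both control libraries at days 0 and 3, and on either side of them at day 1. At day 5 Lif had 349.9 and 253 normalized reads in the knockdown, against 155 and 144 in the control. At day 7 it had 429.7 and 275 in the knockdown, against 175 and 176 in the control. Both knockdown libraries were then above both control libraries, but they also lay farther from each other than the control libraries did.

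The log2 fold change of Lif between the arms was -0.92 ± 0.26 (SE, limma adjusted p = 0.07014) at day 0, 0.06 at day 1 and -0.46 at day 3, and passed the test at none of the 3. With 1 library of day 3 left out, the value of that day lay between -0.81 and -0.12. At day 5 Lif rose by 0.99 ± 0.26 (limma adjusted p = 0.03008), a 1.98-fold difference, and at day 7 by 0.97 ± 0.26 (limma adjusted p = 0.04165), a 1.96-fold difference. These calls were lost without knockdown replicate 1 of the day (adjusted p = 0.2646 at day 5 and 0.3209 at day 7), without control replicate 1 (0.1308 and 0.202) and without control replicate 2 (0.1388 and 0.1607). They were kept without knockdown replicate 2 (0.04064 and 0.0447).

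The course of Lif over time differed between the arms. Relative to day 0, Lif in knockdown cells rose by 0.91 ± 0.26 at day 1, 0.65 at day 3 and 0.80 at day 7 on the log2 scale (limma adjusted p = 0.009613, 0.04358 and 0.01414), and its 0.59 at day 5 did not pass (0.0607). In control cells Lif was at -0.06 at day 1 and 0.20 at day 3, which did not pass, and fell by 1.31 at day 5 and by 1.08 at day 7 (limma adjusted p = 0.0004101 and 0.00179). In knockdown cells the libraries of days 1, 3, 5 and 7 overlapped each other and lay above those of day 0. In control cells those of days 5 and 7 lay below all earlier ones. The change from day 0 to day 7 differed between the arms by 1.88 ± 0.37 (SE) on the log2 scale (limma adjusted p = 0.01004), and that call held without any 1 of the 4 knockdown and 4 control libraries. Lif was the 1 of 8 genes called in that comparison, where 6.38% of all genes were. The calls of Lif within the knockdown arm did not hold when some libraries were left out, taken 1 at a time. The day 3 value was 0.78 without replicate 2 of day 0, and 0.31 without replicate 1 of day 3. The rise was lost at day 7 without knockdown replicate 1 of day 0 (0.09254) or of day 7 (0.1797), and at day 1 without replicate 1 of day 0 (0.07174) or replicate 2 of day 1 (0.1456). At day 3 it was lost without either day 0 library (0.1992 and 0.06266) or replicate 1 of day 3 (0.3967). Under quantile scaling of the libraries it was 0.50 at day 3 and 0.59 at day 7 and did not pass (0.1227 and 0.06277).

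Summed markers of fibroblasts, cells that secrete LIF, were lower in knockdown cells at day 0, higher at day 3 and overlapped between the arms at days 1, 5 and 7. The sum mostly reflects the collagen genes Col1a1, Col1a2 and Col3a1. They averaged 60511, 70194 and 31224 normalized reads over the 20 libraries, against 747 to 3274 for the other markers. The summed level of 8 fibroblast markers at day 0 was 304166 to 318874 in knockdown and 375020 to 385604 in control libraries, and at day 3 it was 129853 to 139288 in the knockdown and 106093 to 111533 in the control. At day 7 it was 87227 to 103084 in the knockdown and 86887 to 89042 in the control. At day 5 the sums were 116278 to 117715 in the knockdown and 100876 to 118092 in the control. The median log2 fold change of the 8 was -0.217 at day 0, 0.244 at day 3, 0.445 at day 5 and 0.368 at day 7. The markers called higher in knockdown cells were 1 of 8 at day 0 (Dcn at 0.53, log2), 2 of 8 at day 5 (Col1a1 at 0.44 and Dcn at 0.54) and 2 of 8 at day 7 (Col1a1 at 0.47 and Postn at 0.78), and each of these calls was lost without 2 or 3 of the 4 libraries of the day, taken 1 at a time. Their part in the Lif result was not tested.

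Il6 and Il11, the ligands that signal through their own alpha receptors, were scarce and fell in both arms as reprogramming went on. At day 0 Il6 had 45.5 and 35.0 normalized reads in knockdown and 35.6 and 40.8 in control libraries, and at day 7 it had 2.90 and 4.33 in the knockdown and 10.8 and 3.55 in the control. From day 0 to day 7 Il6 fell by 3.16 ± 0.48 (SE, limma adjusted p = 2.876e-05) in the knockdown and by 2.42 ± 0.48 (0.0003182) in the control on the log2 scale. Il11 had 54.0 and 55.5 normalized reads in knockdown and 76.9 and 63.5 in control libraries at day 0. At day 7 Il11 had 4.54 and 3.63 in the knockdown and 9.98 and 6.21 in the control. Il11 fell by 3.46 ± 0.47 (9.173e-06) in the knockdown and fell by 2.99 ± 0.47 (3.327e-05) in the control.

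Neither gene passed the test between the arms on any day. The largest difference of Il6 was 1.08 ± 0.48 (SE) at day 3, with 4.74 and 13.4 normalized reads in the knockdown against 4.03 and 2.68 in the control (limma adjusted p = 0.2289), and it lay between 0.42 and 1.75 with 1 library left out. That of Il11 was -0.81 ± 0.47 at day 7 (limma adjusted p = 0.4065), and between -1.12 and -0.51 with 1 left out. With 1 read worth 0.669 to 1.446 normalized reads, these late values rest on a few reads per library.

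The receptor genes moved over time in 3 different ways, and none of them passed the test between the arms on any day. Lifr, the LIF-binding chain, had 237 and 223 normalized reads in knockdown and 207 and 198 in control libraries at day 0. At day 1 Lifr had 413 and 401 in the knockdown, against 257 and 349.5 in the control. At day 3 it had 484 and 460.1 in the knockdown, against 366 and 423 in the control. At day 5 it had 593 and 529.9 in the knockdown, against 679 and 544 in the control, and at day 7 739 and 687 in the knockdown, against 697 and 692 in the control. The level thus increased at each later day in both arms, with no overlap between neighbouring days, and by day 7 it had risen by 1.63 ± 0.14 in the knockdown (SE, limma adjusted p = 3.452e-08) and by 1.77 ± 0.14 in the control (8.807e-09) on the log2 scale.

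Between the arms, knockdown libraries lay above control libraries for Lifr at days 0, 1 and 3 and overlapped them at days 5 and 7. The log2 fold change was highest at day 1, at 0.44 ± 0.14 (limma adjusted p = 0.176), and was 0.16 ± 0.06 as the mean of all days (0.08153). The day 1 value rests on the group in which replicates differed most. Without control replicate 2 of day 1 it passed the test, at 0.66 (limma adjusted p = 0.01432), as did the mean of all days, at 0.21 (0.01002). The mean also passed without control replicate 1 of day 5, at 0.19 (0.04602).

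Osmr, the oncostatin M receptor chain, was highest at day 1 in both arms. It had 1217 and 1376 normalized reads at that day in the knockdown, against 1351 and 1510 in the control. At day 0 it had 1101 and 1065 in the knockdown, against 842 and 871 in the control, a log2 fold change of 0.34 ± 0.10 (SE) that did not pass the test (limma adjusted p = 0.06814). At day 7 it had 860.0 and 731 in the knockdown, against 706 and 704 in the control. Relative to day 0, Osmr rose at day 1 by 0.26 ± 0.10 in the knockdown (limma adjusted p = 0.03816) and by 0.74 ± 0.10 in the control (1.062e-05), and by day 7 it had fallen by 0.45 in the knockdown (0.0007393) and by 0.28 in the control (0.01718). The difference between the arms in the day 1 change, -0.48 ± 0.14, did not pass (limma adjusted p = 0.1575). The day 1 rise in the knockdown was lost without either of its day 0 libraries or replicate 2 of day 1 (0.08116, 0.1493 and 0.2736). The day 7 fall in the control was lost without replicate 2 of day 0 or either day 7 library (0.07817, 0.05865 and 0.06128). As the mean of all days Osmr differed by 0.11 ± 0.04 between the arms (limma adjusted p = 0.09507), and passed without control replicate 2 of day 1 (0.04832).

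Il6st, the gp130 chain that all these receptors share, fell early and stayed low. At day 0 it had 6350 and 6739 normalized reads in knockdown and 7043 and 7198 in control libraries. At day 3 it had 3323 and 3604 in the knockdown, against 3034 and 2952 in the control, and at day 7 3951 and 3623 in the knockdown, against 3492 and 3539 in the control. From day 0, Il6st fell by 0.92 ± 0.08 (SE) at day 3 and by 0.79 at day 7 in the knockdown (limma adjusted p = 4.312e-08 and 1.811e-07), and by 1.25 and by 1.02 in the control (8.532e-10 and 6.419e-09). In control cells day 3 was the lowest day and days 5 and 7 lay above it, and in knockdown cells days 3 and 5, and days 5 and 7, overlapped. Under quantile scaling of the libraries the day 7 falls were 0.42 in the knockdown and 0.59 in the control, and kept their calls. Between the arms Il6st was below the control libraries at day 0 (-0.12 ± 0.08) and above them at day 3 (0.21 ± 0.08) and day 7 (0.11 ± 0.08), and none of these passed the test (limma adjusted p = 0.3876, 0.1365 and 0.5308).

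Stat3, the transcription factor activated by gp130, rose over time in both arms and was lower in knockdown than in control cells at days 5 and 7. At days 0 and 1 Stat3 had 2799.7 and 2897, then 3454 and 3199 normalized reads in the knockdown. The control had 2856 and 2792, then 3849.95 and 3427, and the arms overlapped at both days. At day 3 Stat3 had 3727 and 3766 in the knockdown, against 3965 and 4013 in the control. At day 5 it had 4489.9 and 4483 in the knockdown, against 5356 and 5188 in the control. At day 7 it had 4170.1 and 4205 in the knockdown, against 4814 and 5000.02 in the control. The knockdown libraries lay below the control libraries from day 3 on, and in both arms the order of the days was 0, 1, 3, 7 and 5 from low to high, with no overlap between neighbours.

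Stat3 fell in knockdown relative to control cells by 0.23 ± 0.06 (SE) on the log2 scale at day 5 (limma adjusted p = 0.03122) and by 0.23 ± 0.06 at day 7 (0.04292), or 1.18-fold and 1.17-fold. As the mean of all days it fell by 0.13 ± 0.03 (limma adjusted p = 0.00401). Relative to day 0 it rose by 0.56 ± 0.06 at day 7 in the knockdown (limma adjusted p = 1.163e-06) and by 0.80 ± 0.06 in the control (1.265e-08). The arms' changes to day 7 differed by -0.24 ± 0.09, which did not pass (limma adjusted p = 0.1229). The single-day calls were lost without any 1 of the 4 libraries of the day. The values in those fits lay between -0.26 and -0.21 at day 5 and between -0.26 and -0.20 at day 7. The call on the mean of all days was kept without any 1 of the 20.

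Socs3, the feedback inhibitor that STAT3 induces, showed the largest reduction in knockdown cells among the genes called lower. At days 0 and 1 Socs3 had 627 and 701, then 1078 and 939.5 normalized reads in the knockdown. The control had 639 and 643, then 1118 and 1061, and the arms overlapped at both days. At day 3 Socs3 had 1411 and 1389 in the knockdown, against 1748 and 1785 in the control. At day 5 it had 1543 and 1648 in the knockdown, against 2329 and 2007 in the control. At day 7 it had 1539 and 1736 in the knockdown, against 1996 and 2122 in the control. As for Stat3, the knockdown libraries lay below both control libraries at days 3, 5 and 7. Within each arm the level increased up to day 5 with no overlap between neighbouring days, and days 5 and 7 overlapped.

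Socs3 fell in knockdown relative to control cells by 0.34 ± 0.09 (SE) at day 3 (limma adjusted p = 0.04984), by 0.44 ± 0.09 at day 5 (0.006932) and by 0.33 ± 0.09 at day 7 (0.04392), which are 1.26-fold, 1.36-fold and 1.26-fold. As the mean of all days it fell by 0.23 ± 0.04 (limma adjusted p = 0.001109). Relative to day 0 Socs3 rose by 1.30 ± 0.09 at day 7 in the knockdown (limma adjusted p = 4.377e-09) and by 1.68 ± 0.09 in the control (1.409e-10), and the difference of -0.38 ± 0.13 between these changes did not pass (0.09617). The calls at days 3 and 7 were lost without any 1 of the 4 libraries of the day (adjusted p from 0.1413 to 0.224 and from 0.07466 to 0.3055). That at day 5 was lost without control replicate 1 (0.1256) or knockdown replicate 1 (0.08986). The mean of all days was called without any 1 of the 20 libraries (at most 0.003907).

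**Figure D2:**
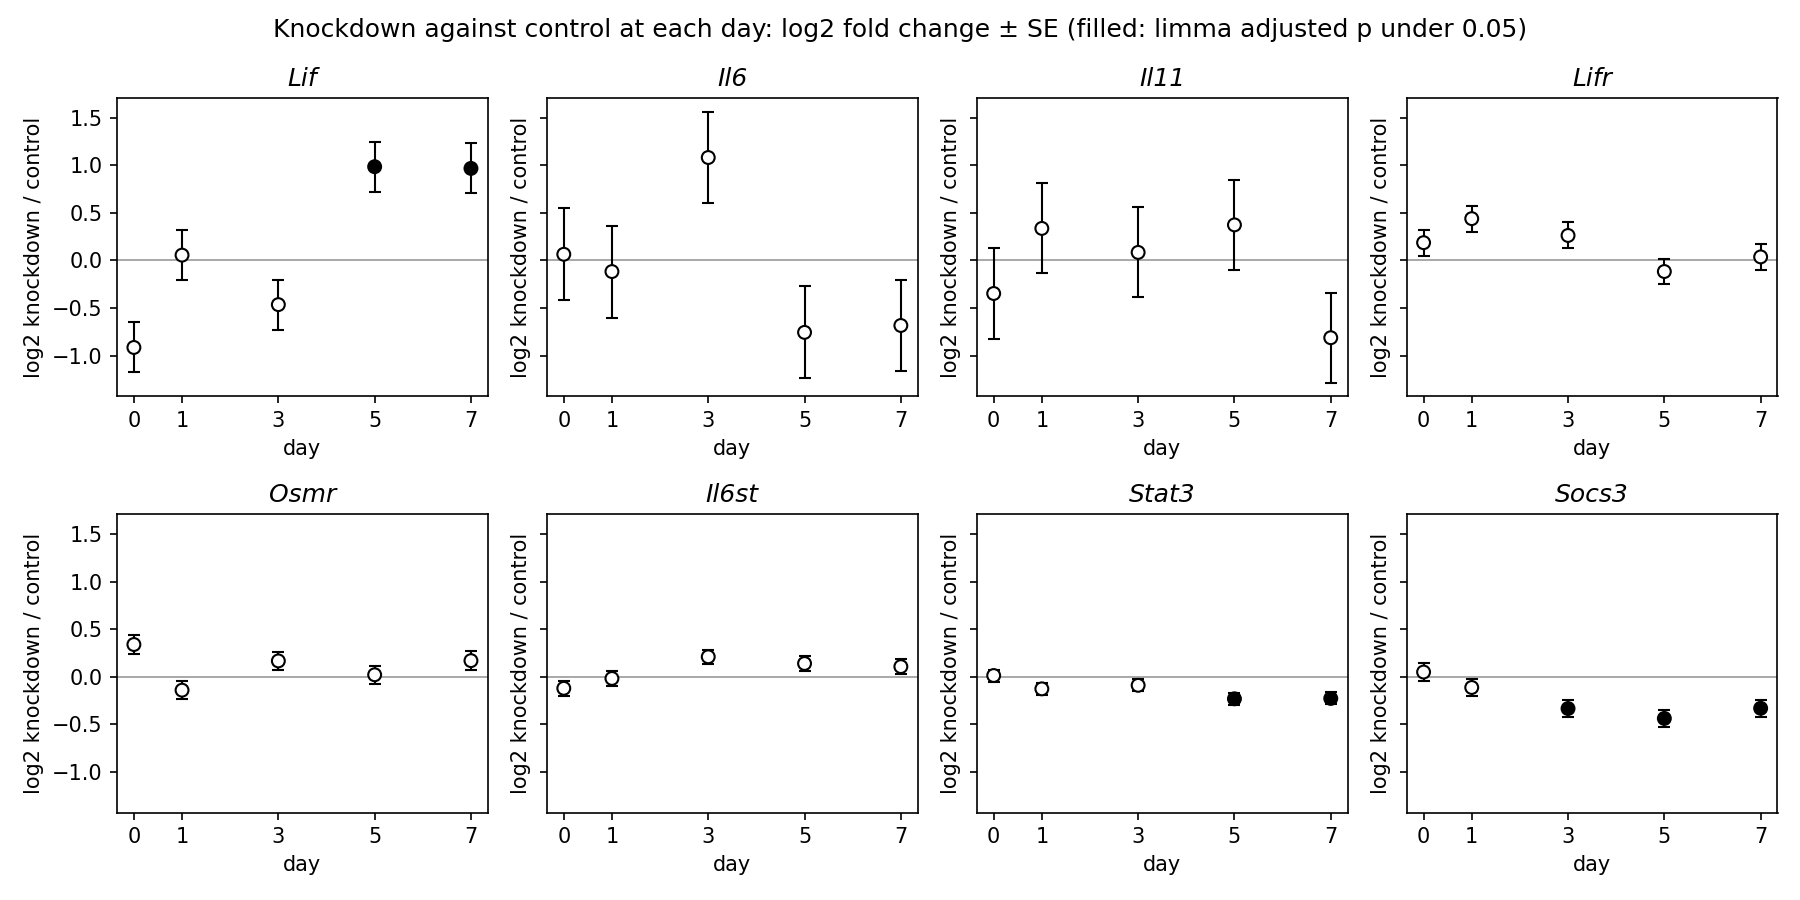
Log2 fold change of knockdown against control (y axis, the same in all panels) at each day for the 8 genes, with bars of 1 SE from the limma fit. Filled points passed the test: Lif at 0.99 and 0.97 at days 5 and 7, Stat3 at -0.23 and -0.23 at the same days, and Socs3 at -0.34, -0.44 and -0.33 at days 3, 5 and 7.

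Most of the 8 genes changed with time in both arms, as most genes measured did. In knockdown cells 7 of 8 were called at day 1 (5 higher and 2 lower), 7 at day 3 (4 and 3), 7 at day 5 (3 and 4) and 8 at day 7 (4 and 4), where 50.1, 60, 64.2 and 67.1% of all genes were called. In control cells 6 of 8 were called at day 1 (4 higher and 2 lower), 6 at day 3 (3 and 3), 7 at day 5 (3 and 4) and 8 at day 7 (3 and 5), where 55, 66.2, 70.2 and 72.3% of all genes were. Lifr, Stat3 and Socs3 rose and Il11 and Il6st fell at each later day in both arms. At day 7 the 2 arms differed in direction for Lif alone among the 8.

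**Figure D3:**
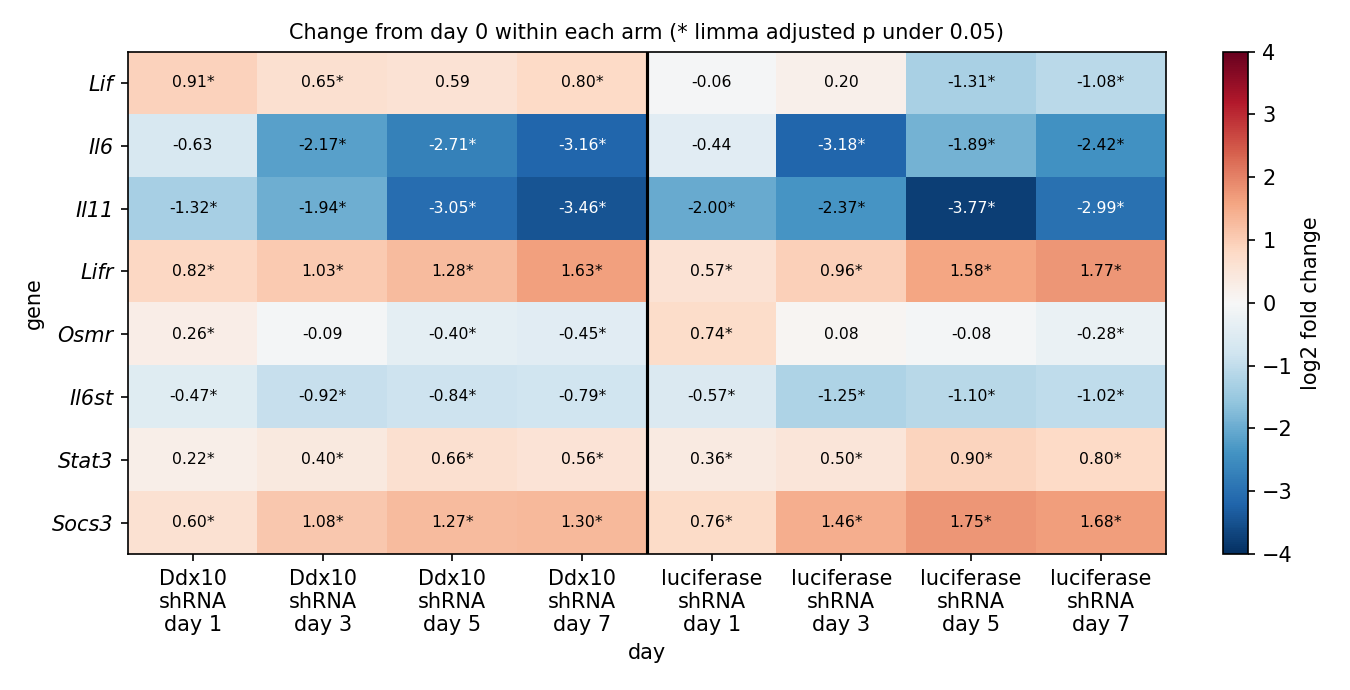
Log2 fold change from day 0 for the 8 genes (rows) at days 1, 3, 5 and 7, with the knockdown arm (Ddx10 shRNA) left of the line and the control arm (luciferase shRNA) right of it. Red is higher and blue lower than day 0, each cell holds its value, and a star marks a limma adjusted p under 0.05. Lif is at 0.80 in the knockdown and at -1.08 in the control at day 7, and the other 7 genes have the same sign in both arms at that day.

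Per kilobase of exon, with the exons of all annotated transcripts of a gene merged, Il6st led at the start and Socs3 at the end. The merged lengths were 11099 bases for Il6st, 9527 for Stat3 and 2891 for Socs3. The order of the genes depends on this choice of length, and the lengths of the transcripts present in the cells were not used. At day 0 the knockdown arm had 589.6 normalized reads per kb for Il6st, 299 for Stat3, 229.6 for Socs3, 89.4 for Osmr and 45.4 for Lif, and the control arm had 642, 296, 222, 70.7 and 86.1. Il11 (26.3 in the knockdown and 33.7 in the control), Lifr (21.4 and 18.8) and Il6 (16.6 and 15.7) came last. By day 7 the order was Socs3, Stat3 and Il6st in both arms, at 567, 439.5 and 341 per kb in the knockdown and 712, 515 and 317 in the control. Behind them, Lif at 81.0 ± 25.1, Lifr at 66.2 ± 3.40 and Osmr at 65.7 ± 7.52 (SD, n = 2) did not differ beyond their spread in the knockdown. In the control the order was Lifr at 64.4 ± 0.333, Osmr at 58.2 ± 0.103 and Lif at 40.3 ± 0.0892. At day 1 Stat3 and Socs3 stood at 349.2 ± 19.0 and 348.9 ± 33.8 in the knockdown and at 382 ± 31.4 and 377 ± 13.9 in the control, within their spread. Il11 and Il6 were under 4 per kb in both arms at day 7.

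Of 36 other genes of the pathway on a list, 33 were in the table. Called higher and lower in knockdown cells were 1 and 3 at day 0, 0 and 0 at day 1, 0 and 2 at day 3, 2 and 2 at day 5, 1 and 0 at day 7, and 3 and 5 as the mean of all days. The shares of all genes called higher and lower were 2.49 and 0.812% at day 0, 2.51 and 2.25% at day 3, 5.83 and 2.9% at day 5, 4.65 and 1.52% at day 7, and 10.3 and 7.46% as the mean of all days. The median log2 fold change of the 33 lay between -0.142 at day 0 and 0.042 at day 7. In the difference between arms in the change from day 0 to day 7, 3 of the 33 were called higher and 1 lower. Of all genes, 6.38% were called there in either direction. The 3 called higher were all among the 11 target genes of the list, whose median was 0.441.

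Among the other ligands and receptors, Osm, which encodes oncostatin M, had 17.9 and 24.8 normalized reads in the knockdown at day 5, against 85.8 and 89.4 in the control, and fell by 2.005 ± 0.58 (SE, limma adjusted p = 0.04267). That call was lost with a pseudocount of 0.1 (0.431) and without any 1 of the 4 libraries (0.1011 to 0.2461). Il6ra, the interleukin-6 alpha receptor, had 1296 and 1399 in the knockdown at that day, against 1912 and 1729 in the control, and fell by 0.43 at day 5 (limma adjusted p = 0.04294) and by 0.37 as the mean of all days (0.0003282). Clcf1, the cardiotrophin-like cytokine, rose by 0.61 and Cntfr, the CNTF receptor, by 0.94 at day 5 (limma adjusted p = 0.02751 and 0.04501). The day 5 calls of Clcf1 and Il6ra were lost without any 1 of the 4 libraries (adjusted p up to 0.1938 and 0.2829), and that of Cntfr without any but control replicate 2 (up to 0.4473). In a fit on the 4 libraries of the day alone, those of Clcf1 and Cntfr were also lost (0.06587 and 0.1725).

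Of 5 kinases and other STATs, which carry the signal inside the cell, 1 was called on a single day. The Janus kinase Jak2 rose by 0.51 at day 0 (limma adjusted p = 0.0218), and Jak1 by 0.15 as the mean of all days (0.004845). Of 8 other inhibitors, Socs1 fell by 0.41 ± 0.09 and the phosphatase Ptpn11, which also passes the signal on to MAP kinases, rose by 0.11 ± 0.04 as the mean of all days (limma adjusted p = 0.004934 and 0.03968), and 0 of the 8 were called on a single day. The call of Jak2 was lost without replicate 1 of either arm (adjusted p up to 0.2177) and in a fit on the day 0 libraries alone (0.1967), and that of Ptpn11 without 15 of the 20 libraries (up to 0.09309).

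Among 11 genes known as targets of LIF or STAT3 signalling, 3 were lower at day 0 and 2 at day 3, and 1 was higher at day 7. The kinase Pim1 had 828 and 867 normalized reads at day 0 in the knockdown, against 1155 and 1107 in the control, and fell by 0.42 at day 0 and by 0.44 at day 3 (SE 0.10, limma adjusted p = 0.0318 and 0.01955). Junb, an AP-1 subunit, fell by 0.67 ± 0.10 at day 0 (limma adjusted p = 0.002943). Gbx2, a homeobox factor, was at 0 in both knockdown libraries at day 0, against 5.99 and 8.57 in the control, and fell by 1.28 ± 0.33 at day 3 (limma adjusted p = 0.03902). Bcl6, a transcriptional repressor, rose by 0.48 ± 0.13 at day 7 (limma adjusted p = 0.03887). The calls of Pim1 at days 0 and 3 and of Bcl6 were lost without any 1 of the 4 libraries (adjusted p up to 0.216, 0.1584 and 0.3105), and that of Gbx2 at day 3 without any but knockdown replicate 2 (up to 0.3215). In fits on the 4 libraries of a day alone, the calls were lost at day 0 for Junb, Pim1 and Gbx2 (adjusted p = 0.1862 each), at day 3 for Pim1 and Gbx2 (0.07347 and 0.1112) and at day 7 for Bcl6 (0.05737). The day 0 call of Pim1 was also lost under quantile scaling (0.0583). From day 0 to day 7, 9 of the 33 rose and 12 fell in the knockdown, and 12 rose and 15 fell in the control, where 67.1% of all genes were called in the knockdown and 72.3% in the control. Tfcp2l1, a factor of the naive pluripotency network, rose by 9.40 in the knockdown and by 8.89 in the control.

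**Figure D4:**
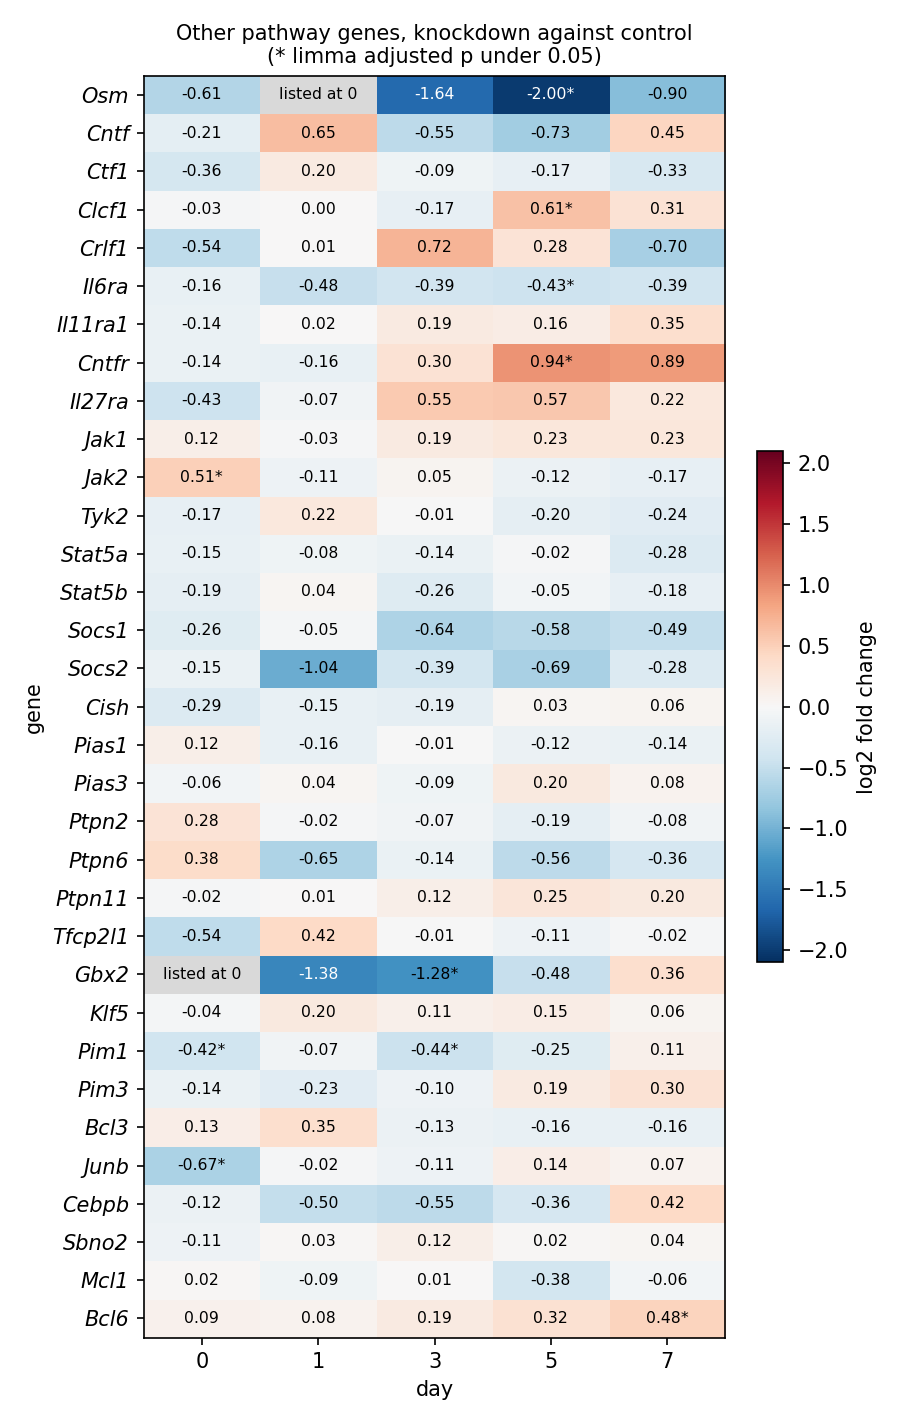
Log2 fold change of knockdown against control at each day for the 33 other pathway genes (rows). Red is higher and blue lower in the knockdown, and a star marks a limma adjusted p under 0.05. Grey cells have a group listed at 0 and show no fold and no star, called or not. Among the called cells that show a fold, Osm at day 5 is the lowest, at -2.005, and Cntfr at day 5 the highest, at 0.94. Gbx2 at day 0, in grey, was called lower (limma adjusted p = 0.0002687).

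The genes whose log2 levels followed each member most closely over the 20 libraries were sought among 11533 genes with an average of at least 50 normalized reads. The members and genes with provisional names (of the Gm, Rik, ENSMUSG, AC, AI or BC type) were left out. A closer gene may be among those with provisional names. The points share the same libraries and the same time course, and Pearson's r is a description. Lif had the weakest partners, led by Stambpl1 (r = 0.816), Vac14 (0.798) and Pax9 (0.796). Socs3 was closest to Ido1 (0.982), C77080 (0.981) and Gbp4 (0.980), Stat3 to Ptpre (0.976), Hs6st1 (0.975) and Pla2g4c (0.974), and Il6st to Pdgfc (0.981), Fgd3 (0.978) and Cnn3 (0.978). Lifr was closest to Pgap1 (0.978) and Osmr to Exoc5 (0.957). Il6 was closest to Wls (0.933) and Il11 to S100a10 (0.959). Among the members, Stat3 and Socs3 had r = 0.961 with each other, Il6st and Socs3 -0.944, and Lif reached at most 0.393 (with Osmr) or -0.417 (with Stat3).

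Markers of the cell types that such a culture can hold moved mostly with time. The summed level of 8 pluripotent cell markers was 198 to 248 at day 0 and 10137 to 11205 at day 7 in the knockdown, and 116 to 175 and 9888 to 10472 in the control. At day 5, Nanog, Esrrb, Zfp42, Dppa5a, Epcam and Utf1 had both knockdown libraries below both control libraries, and so did 5 of these 6, all but Zfp42, at day 7. Of all genes, 56.5% at day 5 and 56.2% at day 7 did not overlap between the arms, in either direction. Nanog averaged 45.0 normalized reads in the knockdown and 85.9 in the control at day 5, Esrrb 39.5 and 93.5, Dppa5a 23.4 and 65.4, and Epcam 1637 and 2804, and none of the 6 passed the test at either day. Tdh was the 1 of 8 called at days 5 and 7, and was higher in knockdown cells (0.49 and 0.70 on the log2 scale). The median log2 fold change of the 8 was -0.846 at day 5 and -0.396 at day 7. Of 8 macrophage markers 6 were in the table. Their sum was 3131 to 3303 at day 0 and 286 to 297 at day 7 in the knockdown, and 2100 to 3234 and 395 to 448 in the control, where C1qa and Tyrobp were at 0 in both libraries at day 7. Cd68 was the 1 called at day 7, at -0.65 (229 normalized reads in the knockdown and 361 in the control), a call lost without 3 of the 4 libraries. Cd68 made up most of the day 7 sum of the macrophage markers in both arms, and the median log2 fold change of the 6 at that day was 0.145. Lyz2 was called higher as the mean of all days, at 0.87. The sums of 5 endothelial markers at day 7 were 3138 to 3192 in the knockdown and 3235 to 3280 in the control, and Kdr was the 1 called at that day, at 1.17. At day 0 L1td1 of the pluripotent and Tek of the endothelial markers were called higher, and Tdh lower. The part of these cell types in the differences of Lif, Stat3 and Socs3 was not tested.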

How the data were processed

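Total RNA of 20 libraries, 2 for each of 10 groups of shRNA and day, was made into messenger RNA libraries and read from both ends by Illumina sequencing, per the labels' protocols. The authors deposited 1 table with a signal for each of 15757 genes, in normalized read counts. The submitters' processing notes name the mm10 genome and the tools STAR 2.5.2a, Trim Galore 0.4.4, DESeq2 1.22.0 and RSEM 1.2.22, with no order or role. The normalization, the annotation, the strand setting and any gene filter are not given in the sources used here. Whole reads could not be recovered from the values, so no test for read counts was run.

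Values were transformed to log2(value + 1), which understates the change of low genes. A filter of at least 1 in at least 2 libraries removed 0 genes. All libraries entered 1 limma fit (version 3.58.1, R 4.3.3) with 10 group means and empirical Bayes with trend and robust settings, on 10 residual degrees of freedom. P-values were adjusted by the method of Benjamini and Hochberg over all 15757 genes, with a threshold of 0.05. The fit was tested on simulated data. Fold changes are knockdown over control, or the later day over day 0. The comparisons between arms and those against day 0 share libraries, and their values are given side by side. Levels between genes are per kb of the merged exons of all transcripts of a gene in GENCODE M21, and promoters are from RefSeq.

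The members, the list of other pathway genes and the marker lists were chosen with earlier results of these data known. All 8 members were named in every comparison. Of the pathway list, the genes called between the arms on a single day were named, and only some of those called in the other comparisons. 1 gene of that list is not reported here. For each member the 3 genes with the highest Pearson correlation were sought, and at least the first is named. Candidates are no members, average at least 50 normalized reads and have no provisional name. Alternatives were another pseudocount, quantile scaling, a filter on low genes, a replicate block, a fit on the compared libraries alone and leaving out each library.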

Additional observations from a re-analysis of the deposited data

Results flagged for a closer look

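The effect of the knockdown on Lif differed between day 0 and days 5 and 7. Its log2 fold change against control was -0.92 at day 0 and -0.46 at day 3, with both knockdown libraries below both control libraries, and 0.99 at day 5 and 0.97 at day 7, with both above. With 1 library of day 3 left out, the value of that day lay between -0.81 and -0.12. The difference was 1.90 ± 0.37 (SE) between day 5 and day 0 (limma adjusted p = 0.007247) and 1.88 ± 0.37 between day 7 and day 0 (limma adjusted p = 0.01004). The differences of 1.45 between day 5 and day 3 and of 1.43 between day 7 and day 3 did not pass the test (limma adjusted p = 0.1496 and 0.1251), nor did those of 0.93 between day 5 and day 1 and of 0.91 between day 7 and day 1 (0.2051 and 0.2396).

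For Socs3 the effect at day 5 minus that at day 0 was -0.49 ± 0.13 (limma adjusted p = 0.03216). That call was lost without 6 of the 8 libraries concerned, taken 1 at a time (adjusted p from 0.0211 to 0.1593 over the 8), and in a fit on those 8 libraries alone (0.06477).

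Il6 and Il6st had libraries on opposite sides at different days, and their differences did not pass the test. The effect on Il6 at day 5 minus that at day 3 was -1.84 (limma adjusted p = 0.3391), on values of a few reads. The effect on Il6st at day 3 minus that at day 0 was 0.33, and at day 7 minus day 0 it was 0.23 (limma adjusted p = 0.1011 and 0.2283). These differences between days, other than day 7 minus day 0, were added after the data were seen, over 10 pairs of days for each of the 8 genes.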

How the results depend on the processing

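Of the calls on the 8 genes, 447 were kept and 13 lost under the settings that used all libraries of a comparison, and 267 were kept and 49 lost when 1 library was left out. No called value changed sign in either case. These totals pool the comparisons against day 0 with those between the arms. Most of the single-day calls between the arms were lost when 1 library was left out, as given for each gene above. Quantile scaling moved the median of all genes in the control between days 7 and 0 to -0.082, against 0.09 as deposited.

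The number of the 8 genes called between the arms at day 3 was 1, and 0 with a pseudocount of 0.1, with a replicate block and with a replicate block nested in day. At day 7 it was 3, and 1 with the replicate block and 0 with the nested block. The replicate block lost the day 7 calls of Stat3 and Socs3 (limma adjusted p = 0.05625 and 0.05952). The nested block lost those of Lif, Stat3 and Socs3 (limma adjusted p = 0.05453, 0.0555 and 0.05733). Same-numbered libraries of the arms showed little shared deviation (correlations of -0.05, 0.084, 0.016, 0.005 and 0.025 at days 0, 1, 3, 5 and 7). These values cannot show whether same-numbered libraries were prepared together, and the labels do not say. With 1 library left out the number was 0 to 1 at day 1, 0 to 0 at day 3, 0 to 2 at day 5, 0 to 1 at day 7, 2 to 4 as the mean of all days, and 3 to 6 for day 1 against day 0 in the knockdown.

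Values that changed sign with 1 library left out were all uncalled. Between the arms they ranged from -0.1196 to 0.2492 for Il6, from -0.0121 to 0.0369 for Stat3 and from -0.0312 to 0.1292 for Socs3 at day 0. At day 1 the ranges were -0.3083 to 0.42 for Lif, -0.368 to 0.1341 for Il6, -0.1824 to 0.856 for Il11 and -0.0718 to 0.0348 for Il6st, which was 0.0022 under quantile scaling. They were -0.563 to 0.7321 for Il11 at day 3, -0.2756 to 0.0428 for Lifr and -0.0774 to 0.1179 for Osmr at day 5, and -1.3696 to 0.0015 for Il6 and -0.015 to 0.0896 for Lifr at day 7. As the mean of all days they were -0.2191 to 0.0551 for Il6 and -0.2025 to 0.0565 for Il11. Lif in the control at day 1 against day 0 ranged from -0.2291 to 0.1095.

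Over all genes, the 521 calls at day 0 became 304 under quantile scaling, 2 in a fit on the compared libraries alone and 100 to 530 with 1 library left out. The 23 at day 1 became 40 and 14 with pseudocounts of 0.1 and 5, 13 under quantile scaling, 41 with genes averaging at least 50, 12 with the replicate block, 0 in the fit alone and 18 to 743 with 1 left out. With 1 left out, the 751 at day 3 became 74 to 296, the 1376 at day 5 459 to 974, the 972 at day 7 286 to 553 (1725 in the fit alone), and the 1005 for the difference between arms 283 to 929. Leaving out a library leaves its group with 1, which is assumed to vary like the others. Il6 and Il11 have no value among genes averaging at least 50, and the mean of all days has no fit on compared libraries alone. The cause of these shifts was not tested.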
